A study of Mus musculus with 12 samples.

Results

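Cathepsins, legumain and a thiol reductase were followed in lymphocytes of the mouse spleen, resting B cells on one side and naive CD4+ T cells on the other. Several of them, but not all, are known to prepare peptides for MHC class II in lysosomes. The members are 10 genes chosen by name, namely Ctsa, Ctsb, Ctsc, Ctsd, Ctsh, Ctss, Ctsw, Ctsz, Lgmn and Ifi30, out of 41128 genes in the deposited table. RNA sequencing gave 12 libraries in 4 groups of 3: CD43- resting B cells of females and of males, and naive CD4+ CD62L+ T cells of females and of males. All groups share the strain C57BL/6J and an age of 6 to 8 weeks, with no treatment or allele named. The T cells were enriched on magnetic beads and then sorted as CD62Lhi, CD44lo and CD25-. Mice were pooled for each replicate, and errors therefore describe how pools vary. Levels are adjusted TPM, where TPM is a length-corrected share of transcripts. The method of adjustment is not given, totals differ between libraries, and sequencing depth is unknown.

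Lysosomes degrade proteins at acid pH with proteases that differ in active site and in cutting habit. In cells that present antigen, some of these proteases trim the invariant chain (Cd74), which blocks the groove of new MHC class II molecules. Some also cut ingested antigen into peptides that then take the place of that chain. Resting B cells carry MHC class II and present antigen taken up through their receptor, while naive mouse CD4+ T cells read such peptides and are not known as presenting cells.

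Promoter sequences were looked at because several lysosomal genes share a short word, CACGTG, that is the core of the element read by the lysosomal regulator TFEB and its relatives. RefSeq promoters on GRCm38.p6, from 250 bases before to 50 after a transcript start, matched 7 of the 10 genes: Ctsa, Ctsc, Ctsd, Ctss, Ctsz, Lgmn and Ifi30. Both strands were searched, and CACGTG reads the same on each. It stood in 4 of the 7 genes (Ctsa, Ctsd, Ifi30 and Lgmn), against 8.09% of all 27025 genes with a promoter. The longer word TCACGTG, which overlaps it, stood in the same 4 genes and in 4.29% of all genes. The 6 sites are shown in windows of 30 bases, 5′ to 3′ on the strand of the gene, with the word in capitals. Ctsa and Lgmn each have 2 promoters in RefSeq, and the sites lie in 1 of them.
Ctsa, first site, chr2:164833749-164833778, + strand: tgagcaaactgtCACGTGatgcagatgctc
Ctsa, second site, chr2:164833766-164833795, + strand: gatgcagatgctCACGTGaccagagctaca
Ctsd, far site, chr7:142388048-142388077, - strand: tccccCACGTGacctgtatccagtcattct
Ctsd, near site, chr7:142387908-142387937, - strand: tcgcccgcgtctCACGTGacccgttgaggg
Ifi30, chr8:70766842-70766871, - strand: atccaaaaacttCACGTGaccagacatgct
Lgmn, chr12:102439124-102439153, - strand: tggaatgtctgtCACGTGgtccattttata

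The word GGAAGT, a core read by ETS-family factors, stood in 3 of the 7 genes (Ctsa, Ctsc and Ctss) and in 26.5% of all genes. It is shown for Ctss and Ctsc, 2 genes higher in B cells without CACGTG in their window, where it lies on the opposite strand and so reads ACTTCC in capitals.
Ctss, chr3:95526772-95526801, + strand: aaatgaaagttcACTTCCtcattgtggatg
Ctsc, chr7:88277922-88277951, + strand: tgtcactaactaACTTCCtcaggccacctc

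CCAAT, the word of the NF-Y factor, stood in Ctsz and Lgmn, 2 of the 7 genes, and in 41.1% of all genes. A match describes the letters of a window and is not a measured binding site.

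The libraries carried the markers of their labels. The summed level of 5 B cell identity genes was 2610 to 2970 in the B cell libraries and 0.90 to 5.34 in the T cell libraries. The sum of 5 T cell identity genes was 1020 to 1190 in T cells and 9.76 to 14.1 in B cells. Markers of monocytes and macrophages summed to 10.3 to 14.4 in B cells and 2.64 to 5.80 in T cells, with Lyz2 making up most of the sum in B cells only, and those of dendritic cells to 4.93 to 12.4 and 1.87 to 3.34. Markers of neutrophils summed to at most 2.57 in any library, and those of plasma cells to 54.4 to 65.0 in B cells, mostly Irf4, and at most 3.67 in T cells. A list of B cell subset markers (Cr2 in its 2 entries, Cd1d1, Cd9 and Fcer2a) summed to 502 to 687 in B cells and 46.3 to 52.7 in T cells. It does not mark 1 subset, since Fcer2a, at 136 to 196 in B cells, is known as a marker of follicular rather than marginal zone cells. The totals of adjusted TPM ran from 561020 to 1453940 per library.

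B and T cells were compared first, which asks how the protease set differs between a cell that presents antigen through MHC class II and one that does not. Of the 10 genes, 7 were higher in B cells (Ctsh, Ifi30, Ctsz, Lgmn, Ctsc, Ctss and Ctsa) while Ctsw, Ctsd and Ctsb, 3 of the 10, were higher in T cells. All 10 passed an adjusted p of 0.05 in limma, and for all 10 every library of one cell type lay above every library of the other. The background is high: 73.0% of the 12520 genes tested passed (31.4% towards B cells, 41.6% towards T cells), and 53.9% showed no overlap (24.2% and 29.7%). A call by itself is thus common among all genes. The balance of directions among all genes rested on the scaling: 43.0% of calls were towards B cells as deposited and 70.8% with every library rescaled to the same total. The 10 genes split 7 to 3 as deposited and 7 to 2 after that rescaling. In these bulk libraries, fewer cells of a type and less RNA per cell cannot be told apart. A call together with a difference of at least 1 on the log2 scale was reached by 8 of the 10, against 21.6% of all tested genes. A call with a difference of at least 2 was reached by 6 of the 10, against 8.77%. The 10 genes were chosen with earlier results of these data known, so such comparisons with all genes only describe the set. The median difference, B minus T, was 1.58 for the 10 genes and -0.09 for all tested genes, and the median size regardless of direction was 2.37 and 0.40. Differences are of log2(adjusted TPM + 1), so changes of low genes come out smaller than they are.

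**Figure D1:**
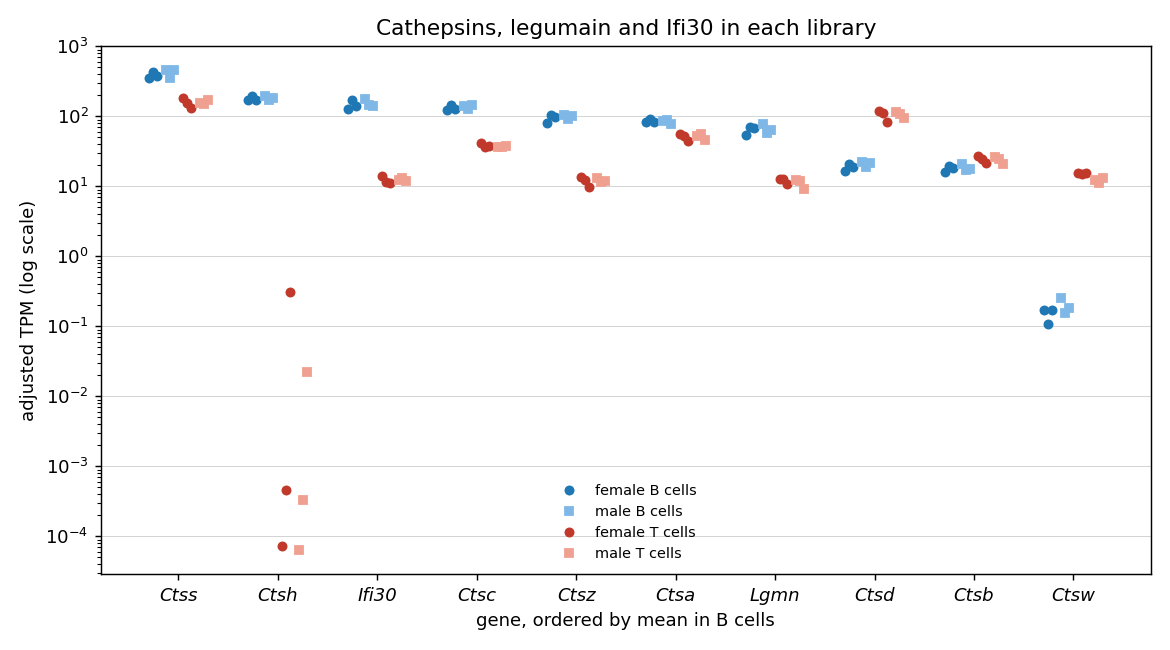
Adjusted TPM of the 10 genes on a log scale (vertical axis), with 1 point per library, circles for females and squares for males, blue for B cells and red for T cells. B and T points are apart for every gene. Ctsh in T cells scatters far below 1, and Ctsw in B cells lies between 0.107 and 0.258.

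The cysteine cathepsins that cut within proteins are Ctss and Ctsb among these genes, and they differed in opposite directions. Ctss, the protease that makes the last cuts in the invariant chain in B cells and dendritic cells, was the highest of the 10 in both cell types. It ranged from 348 to 460 in B cells with a median of 405.5, and from 134 to 185 in T cells with a median of 157. The lowest B cell library was thus above the highest T cell library, and in T cells Ctss was still above each of the other 9 genes. Its difference was 1.35 (SE 0.097, adjusted p = 4.7e-08 in limma), a ratio of means of 2.56. Ctss (chromosome 3, 95526786 to 95556403, GRCm38) overlaps the processed pseudogene Hmgb1-ps5 on the same strand over 557 bases, but none of the 25-base words of its longest transcript occurs in another gene.

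Ctsb, a cysteine protease with both endopeptidase and carboxy-dipeptidase activity, went the other way by a small margin. It ranged from 16.3 to 20.98 in B cells with a median of 18.1, and from 21.2 to 27.1 in T cells with a median of 24.7. The gap between the groups was narrow, 20.98 in male B cell 1 against 21.19 in male T cell 6. The difference was -0.39 (SE 0.079, adjusted p = 0.0007 in limma). With every library rescaled to the same total it was -0.02 and no longer passed (adjusted p = 0.93, range over the alternatives 0.00038 to 0.93). Relative to the median of all tested genes, which that rescaling moved from -0.09 to 0.25, Ctsb stood at -0.30 as deposited and -0.28 after rescaling.

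Ctsh, Ctsc, Ctsz and Ctsa, which act mainly at the ends of protein chains, were all higher in B cells. Ctsh, an aminopeptidase that trims peptides from the N-terminal end (chromosome 9, 90054152 to 90076089), showed the largest difference of the 10. Its levels were 170, 193 and 172 in female B cells and 197, 172 and 183 in male B cells. In T cells they were 7.33e-05, 0.000463 and 0.305 in females and 6.35e-05, 0.000331 and 0.0221 in males. The B cell libraries lay within a ratio of 1.16 of each other, while no T cell library reached 1. The difference was 7.44 (SE 0.074, adjusted p = 1.6e-16 in limma), which placed Ctsh 29th of the 12520 tested genes by size on this scale. With a pseudocount of 0.1 it was 10.44. No ratio is given, because the deposited bounds of the T cell values differ by up to 304 times. The T cell library with the most Ctsh, female T cell 6, also held the most B cell identity RNA. As a share of the B cell mean, it held 0.17% for Ctsh, 0.38% for Cd74, 0.49% for H2-Aa and 0.17% for Ms4a1. That library also had the highest sums of monocyte and macrophage markers and of dendritic cell markers among T cells. The part of other cells in its Ctsh value was not tested.

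Ctsc activates serine proteases by clipping dipeptides from their N-terminal end, and is the enzyme that matures granzymes in cytotoxic cells. It ranged from 122 to 146 in B cells with a median of 135, and from 36.1 to 41.5 in T cells with a median of 37.3. The ranges are far apart and both are tight, the T cell libraries lying within a ratio of 1.15. The difference was 1.81 (SE 0.061, adjusted p = 1.8e-11), a ratio of means of 3.57. The long noncoding RNA Gm26522 overlaps Ctsc on the opposite strand, and the libraries were made with a kit that keeps strand.

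Ctsz, a carboxypeptidase also called cathepsin X, ranged from 79.5 to 106 in B cells with a median of 99.3. In T cells it ranged from 9.78 to 13.7 with a median of 12.2. The cell types differed by 2.90 (SE 0.086, adjusted p = 4.6e-12 in limma), and the mean in B cells was 8.03 times that in T cells. Ctsa, a serine carboxypeptidase that also protects the lysosomal enzymes Glb1 and Neu1 from degradation, differed less. It ranged from 78.6 to 90.6 in B cells and from 44.7 to 56.1 in T cells, with medians of 84.3 and 52.5. That difference was 0.72 (SE 0.069, adjusted p = 8.3e-07).

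Legumain and the thiol reductase were both higher in B cells. Lgmn encodes legumain, or asparagine endopeptidase, which cuts after asparagine and opens some antigens to the other proteases. It ranged from 54.5 to 77.4 in B cells with a median of 66.6, and from 9.20 to 12.9 in T cells with a median of 12.2. The groups were far apart, by 2.39 (SE 0.099, adjusted p = 1.5e-10), a ratio of means of 5.61. Ifi30, also called GILT, reduces disulfide bonds so that antigens can unfold, and it is induced by interferon. It ranged from 126 to 177 in B cells with a median of 144, and from 11.02 to 14.0 in T cells with a median of 12.2. The difference was 3.50 (SE 0.087, adjusted p = 7.2e-13), a ratio of means of 12.2. Of the 7 genes higher in B cells, Ctsh alone differed by more than Ifi30.

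The aspartic protease Ctsd was higher in T cells. Cathepsin D cuts proteins endoproteolytically at low pH and takes part in general lysosomal turnover. Its levels were 16.8, 20.7 and 19.0 in female B cells and 22.4, 18.7 and 21.2 in male B cells. They were 119, 110 and 84.2 in female T cells and 114, 109 and 94.7 in male T cells. The lowest T cell library, female T cell 6, was still far above the highest B cell library, male B cell 1. The difference was -2.35 (SE 0.091, adjusted p = 7e-11), and T cells had 5.32 times the B cell mean. The gene (chromosome 7, 142375911 to 142388038) overlaps Gm49369 on the same strand in GENCODE M21, and 37.3% of the 25-base words of its longest transcript also occur there. Gm49369 is not among the genes analysed here, so how reads of the shared part were assigned is not known.

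Ctsw, or lymphopain, is a cathepsin known from natural killer and CD8+ T cells, where it is held in the endoplasmic reticulum rather than in lysosomes. It was 0.173, 0.107 and 0.174 in female B cells and 0.258, 0.153 and 0.181 in male B cells. It was 15.5, 15.0 and 15.3 in female T cells and 12.4, 11.3 and 13.0 in male T cells. Every T cell library was above every B cell library by more than an order of magnitude, with a difference of -3.64 (SE 0.057, adjusted p = 7.1e-15). With a pseudocount of 0.1 it was -5.67. The summed level of 9 markers of natural killer and cytotoxic T cells was 2.34 to 5.37 in B cells and 40.8 to 49.8 in T cells. Of these 9, 4 were tested, of which 3 were higher in T cells (Klrd1, Prf1 and Cd8b1) and 1 in B cells (Cd8a). In T cells Klrd1 reached 15.9 to 24.0, Prf1 11.5 to 17.6 and Cd8b1 5.25 to 8.11. The other 6 of the list (Ncr1, Klrb1c, Cd8a, Gzmb, Gzma and Nkg7) were each at most 0.699 in any T cell library. Of the untested genes, Ncr1 and Klrb1c had higher means in B cells, 0.204 and 0.170, than in T cells, 0.00742 and 0.0164. Gzmb, Gzma and Nkg7 had higher means in T cells. The part of such cells in the level of Ctsw was not tested.

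**Figure D2:**
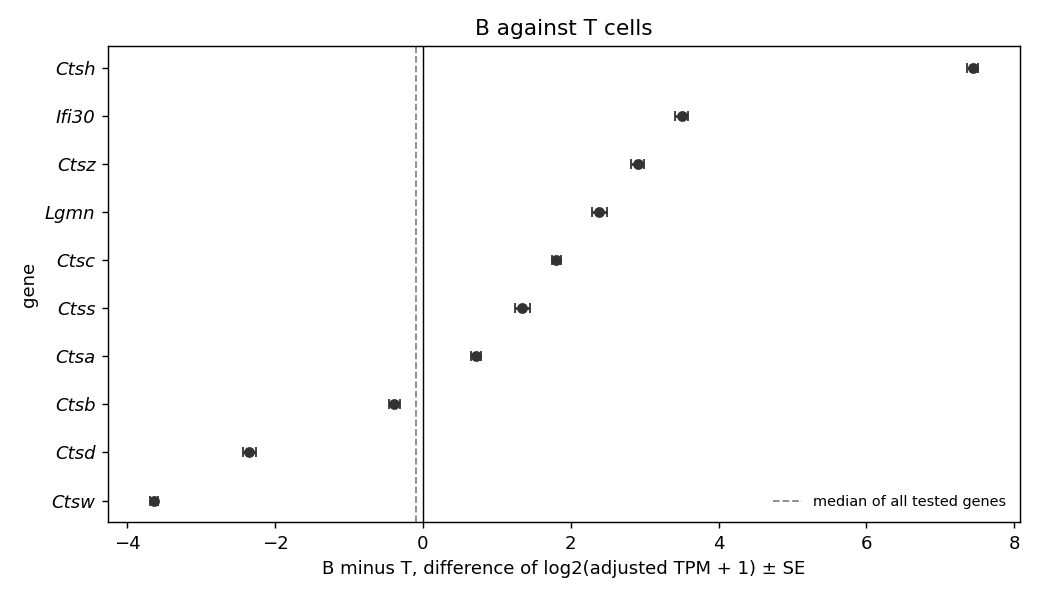
Difference of log2(adjusted TPM + 1), B minus T, for the 10 genes (points) with its standard error (bars) from limma over 12 libraries. The points run from -3.64 for Ctsw to 7.44 for Ctsh, and the dashed line marks the median of all 12520 tested genes at -0.09.

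Levels per length can be set in order within a cell type, and the order differed between the cell types. In B cells it was Ctss, Ctsh, Ifi30, Ctsc, Ctsz, Ctsa, Lgmn, Ctsd, Ctsb and Ctsw, from high to low. The ranges of 4 neighbouring pairs overlapped there: Ctsh with Ifi30, Ifi30 with Ctsc, Ctsz with Ctsa, and Ctsd with Ctsb. In T cells the order was Ctss, Ctsd, Ctsa, Ctsc, Ctsb, Ctsw, Ifi30, Ctsz, Lgmn and Ctsh. There Ctsw, Ifi30, Ctsz and Lgmn, with means of 13.75, 12.3, 12.02 and 11.7, overlapped from each to the next. Ctsd thus moved from the eighth place in B cells to the second in T cells, while Ctss kept the first place in both. The 10 genes summed to 1016 to 1290 in B cells (median 1163) and to 369 to 484 in T cells (median 428).

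Shares of that sum do not depend on the scaling between libraries, and are given as means ± SD over 6 libraries. Ctss made up 34.98% ± 1.64 of the sum in B cells against 37.2% ± 2.06 in T cells, with overlapping ranges of 33.2% to 37.9% and 35.5% to 40.9%. Its share was thus close in both cell types although its level was not. Ctsd made up 1.71% ± 0.043 in B cells against 24.6% ± 1.46 in T cells. Ctsh made up 15.7% ± 0.61 in B cells, and at most 0.083% in a T cell library. The share of Ifi30 was 13.0% ± 0.85 in B cells against 2.89% ± 0.15 in T cells, and that of Ctsz 8.33% ± 0.34 against 2.81% ± 0.12. Ctsc and Lgmn also took less of the sum in T cells, with 8.90% ± 0.70 against 11.7% ± 0.38 and 2.74% ± 0.28 against 5.64% ± 0.37 in B cells. Ctsa and Ctsb took more of the sum in T cells, with 11.97% ± 0.78 against 7.36% ± 0.72 in B cells for Ctsa and 5.70% ± 0.34 against 1.59% ± 0.062 for Ctsb. Ctsa is thus higher in B cells by level and larger in T cells by share. Within a library, Ctss was 20.5 ± 0.86 times Ctsd in B cells against 1.52 ± 0.16 times in T cells. The ratio of the carboxypeptidase Ctsz to Ctsb was 5.26 ± 0.25 in B cells against 0.495 ± 0.040 in T cells.

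**Figure D3:**
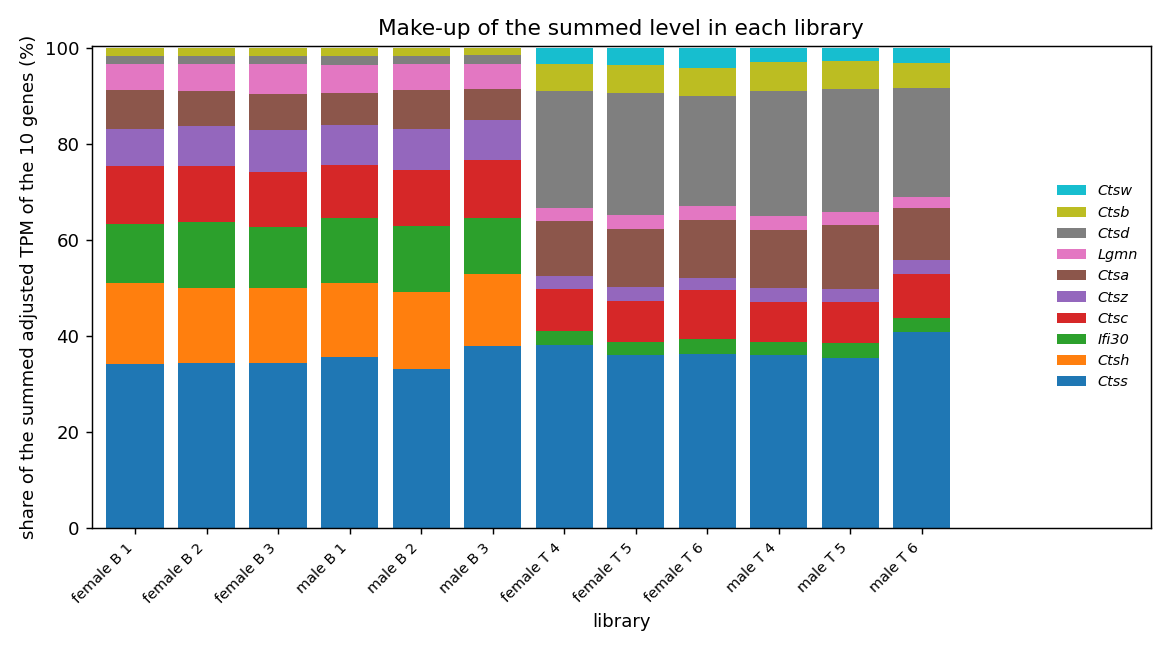
Share of each of the 10 genes in their summed adjusted TPM (vertical axis, percent) in each of the 12 libraries (horizontal axis), stacked to 100. Ctss fills 33.2% to 40.9% of every bar, Ctsh and Ifi30 fill much of the B cell bars, and Ctsd fills a mean of 24.6% of the T cell bars.

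The genes with the most similar profile were sought for Ctsh, Ctsw and Ifi30, the members with the largest differences. Likeness was the root mean square difference between values of log2(adjusted TPM + 1) centred per gene over the 12 libraries, where 0 is identical. On this scale values well below 1 look alike, so near genes can have very different ratios. Nearest to Ctsh were Cd24a (0.088), Blk (0.132) and Tnfrsf13c (0.141), nearest to Ctsw were Zdhhc15 (0.117), Btbd11 (0.121) and Tox (0.137), and nearest to Ifi30 were Scimp (0.116), Cnr2 (0.122) and Cyb561a3 (0.131). Scimp, for example, averaged 10.9 in B cells against 0.0222 in T cells where Ifi30 averaged 151 and 12.3, and Btbd11 had 0.00458 in B cells where Ctsw had 0.174. With 2 cell types the measure is led by the size of the difference between them on that scale.

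Most of the remaining cathepsins were below the minimum for testing. Of 14 other cathepsin genes, 11 did not reach it, including the placental group (Ctsj, Ctsm, Ctsq, Ctsr, Cts3, Cts6, Cts7 and Cts8), with no value above 0.497. The 3 tested all passed. Ctso was higher in B cells, with 41.0 to 59.1 against 20.1 to 24.0 in T cells and a difference of 1.24 (adjusted p = 2.1e-08). Ctsl, the main protease for the invariant chain in the thymic epithelium, was higher in T cells at 4.04 to 5.20 against 1.35 to 2.81. Ctse, an aspartic relative of Ctsd, was likewise higher in T cells at 9.35 to 11.8 against 5.67 to 8.00. With every library rescaled to the same total, 1 of these 2 still passed.

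Cystatins, stefins and serpins, which inhibit cathepsins or related proteases, differed in both directions. Of 9 listed, 5 were tested, of which 1 was higher in B cells, 3 were higher in T cells and 1 (Cstb) did not pass. Cystatin C (Cst3), a secreted inhibitor of cysteine cathepsins, was 75.3 to 117 in B cells and 22.1 to 28.0 in T cells (difference 1.84, adjusted p = 3.4e-09). Its highest library, female B cell 2, also had the highest sum of dendritic cell markers, 12.4 against at most 8.99 in the other B cell libraries. Among B cell libraries, Itgax (4.08), Xcr1 (2.32) and Clec9a (2.08) were highest there. Flt3 was highest in male B cell 1 (2.74) and Zbtb46 in female B cell 3 (1.75). The part of dendritic cells in the level of Cst3 was not tested. Cystatin F (Cst7), which inhibits cathepsin C and other cathepsins in cytotoxic cells, was 0.0712 to 0.207 in B cells and 4.53 to 5.38 in T cells (difference -2.41, adjusted p = 9.5e-13). Serpinb9, known as an inhibitor of granzyme B rather than of a cathepsin, was also higher in T cells, at 6.80 to 9.81 against 2.08 to 4.16.

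The MHC class II genes and their partners had the largest median difference of the 7 lists. Of 11 tested, 10 were higher in B cells and 1, Sppl2a, did not pass, with a list median of 6.50. Cd74 was 3850 to 5190 in B cells and 0.963 to 16.9 in T cells, a difference of 9.79 (adjusted p = 2.5e-10). H2-Aa and H2-Ab1, which encode the chains of I-A, differed by 9.59 and 9.25. Sppl2a cleaves the last membrane stub of Cd74 that Ctss leaves, and had 39.1 to 49.8 in B cells against 36.8 to 41.5 in T cells. Under each of the other 3 scalings all 11 passed. The 10 that passed as deposited differed by 3.87 to 9.79, a range in which Ctsh, at 7.44, was the only one of the 10 proteases and reductase.

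Lysosomal genes outside the protease set were mixed. Of 34 other lysosomal hydrolases and their activators, 33 were tested, of which 20 were higher in B cells, 8 were higher in T cells and 5 did not pass, with a median of 0.37. With every library rescaled to the same total, the split was 20 to 2. Scpep1, a serine carboxypeptidase like Ctsa, was 25.8 to 32.7 in B cells and 0.867 to 1.38 in T cells. The acid nuclease Dnase2a was 19.7 to 25.3 in B cells and 2.79 to 3.98 in T cells. These differed by 3.80 and 2.46, with adjusted p of 1e-13 and 2.1e-12 in limma.

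Among 11 tested lysosomal membrane and cholesterol transport proteins, 2 were higher in B cells, 5 were higher in T cells and 4 did not pass, with a median of -0.10. The split was 4 to 1 with totals rescaled. Npc2, which carries cholesterol out of the lysosome lumen, was 126 to 172 in T cells and 17.6 to 24.6 in B cells, a difference of -2.80 (adjusted p = 1.4e-11). Lamp2, a main protein of the lysosomal membrane, was 38.4 to 44.5 in B cells and 14.6 to 18.2 in T cells. Scarb2, the receptor that brings glucocerebrosidase to lysosomes, was 19.4 ± 1.24 (SD, n = 6) in B cells against 31.3 ± 1.70 (SD, n = 6) in T cells.

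The proton pump that acidifies the lysosome differed by subunit. Of 17 V-ATPase genes tested, 7 were higher in B cells, 7 were higher in T cells and 3 did not pass, with a median of -0.04. With totals rescaled it was 7 to 1. The alternative a subunits went in opposite directions: Atp6v0a1 was 25.5 to 31.3 in B cells and 0.346 to 0.892 in T cells, and Atp6v0a2 was 13.4 to 17.4 and 24.7 to 29.2. Tcirg1, which encodes the a3 subunit, was 31.6 to 51.2 in B cells and 12.8 to 16.5 in T cells. Atp6v1d, a subunit of the rotor, was 71.5 to 91.0 in T cells and 27.0 to 31.3 in B cells. Atp6v0a1 and Atp6v1d differed by 4.22 and -1.46, with adjusted p of 1e-13 and 2.1e-10.

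Genes that deliver enzymes to lysosomes or regulate lysosomal genes were mixed too, with 3 of 8 tested higher in B cells, 4 higher in T cells and 1 not passing. That split was 3 to 2 with totals rescaled. Tfeb, whose protein reads the CACGTG element shown for Ctsa, Ctsd, Ifi30 and Lgmn, was 41.6 to 45.2 in B cells and 6.49 to 8.40 in T cells, a difference of 2.43 (adjusted p = 2.1e-12). Of those 4 genes, 3 were higher in B cells and Ctsd was higher in T cells. Igf2r, a receptor for mannose 6-phosphate that carries new hydrolases to endosomes, was 28.8 to 31.8 in T cells and 6.14 to 7.80 in B cells (difference -1.91, adjusted p = 5.5e-12). Gnptab, which encodes part of the enzyme that adds that tag, was 17.2 to 21.9 in B cells and 8.71 to 10.3 in T cells.

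**Figure D4:**
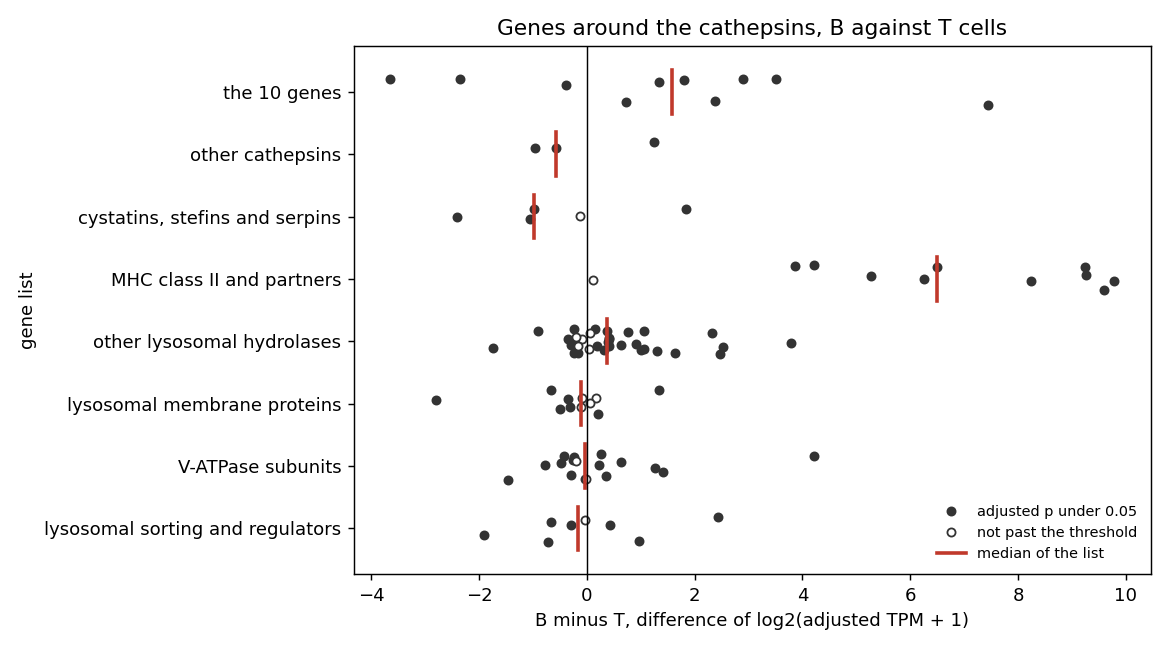
Difference of log2(adjusted TPM + 1), B minus T, for each tested gene (points) of the 10 genes and of 7 lists around them, filled where the adjusted p is under 0.05, with the median of each list in red. The MHC class II genes stand furthest to the right with a median of 6.50, and the V-ATPase subunits centre near 0 with a median of -0.04.

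Sex was the second factor of the design, and none of the 10 genes passed for it. Between female and male B cells 0 of 10 passed in limma, where 0.144% of all tested genes did, and 0 of 10 had an unadjusted p under 0.05, against 2.98% of all tested genes. In 0 of 10 were female and male B cells free of overlap, against 7.20%. The differences, female minus male, ran from -0.14 for Ctsd to 0.03 for Ctsa, with standard errors of 0.080 to 0.14. In 9 of the 10 the female mean was the lower on the log2 scale, but all were within the spread between libraries. Of the 6 B cell libraries, female B cell 1 was the lowest for 8 genes, namely Ctss, Ctsh, Ifi30, Ctsc, Ctsz, Ctsd, Ctsb and Lgmn. That library also had the lowest sum of dendritic cell markers among B cells, 4.93 against 7.61 to 12.4. Its sum of monocyte and macrophage markers, 10.3, was the lowest too, and its total of adjusted TPM, 1000000, was the highest. The part of other cells or of scaling in these low values was not tested.

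Between female and male T cells 0 of 10 passed, where 0.104% of all tested genes did, and 1 of 10, Ctsw, had an unadjusted p under 0.05 against 2.55% of all tested genes. Ctsw was 15.3 ± 0.28 (SD, n = 3) in female T cells against 12.2 ± 0.88 (SD, n = 3) in males, and the groups did not overlap, in 1 of 10 genes against 8.49% of all tested genes. The difference was 0.30 (SE 0.080, unadjusted p = 0.0028, adjusted p = 0.74 in limma). Without the filter on low values it passed (adjusted p = 0.0028, range over the alternatives 0.0028 to 1), with the same size. Klrd1 was also higher in each female T cell library, at 21.1 to 24.0 against 15.9 to 20.8, while Prf1 overlapped, at 11.5 to 16.8 against 14.0 to 17.6. The other 9 genes differed by -0.04 to 0.12 in T cells.

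An interaction term asked whether the sex effect differed between the cell types, and 0 of the 10 genes and 0 of all tested genes passed in limma. At an unadjusted p under 0.05 stood 1 of the 10, Ctsw, and 295 (2.36%) of all tested genes. Ctsw had the largest value of the 10, -0.36 (SE 0.11, unadjusted p = 0.0085, adjusted p = 1), and it passed without the filter on low values (adjusted p = 0.0072, range over the alternatives 0.0072 to 1). No gene of the 7 lists passed for sex in either cell type.

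**Figure D5:**
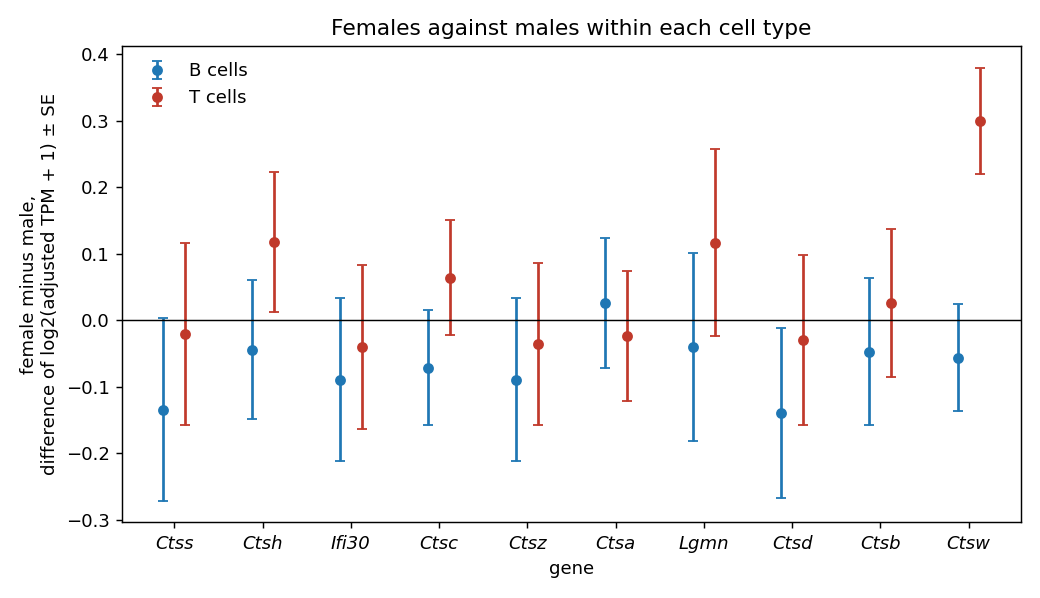
Female minus male difference of log2(adjusted TPM + 1) for the 10 genes in B cells (blue) and T cells (red), with standard errors from limma. Most points lie near 0, and Ctsw in T cells at 0.30 is the highest.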

How the data were processed

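RNA was depleted of ribosomal RNA and made into stranded libraries, per the labels. The submitters' processing notes name Trim Galore, FastQC, STAR and the build mm10. The deposited signal is adjusted TPM with a point estimate and a lower and upper bound per gene and library. The quantification tool, method of adjustment and level of the bounds are not given in the sources used here. The values are not counts and hold 0 zeros, so depth is unknown and the bounds were used for precision.

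Genes at 1 or more in at least 3 libraries (12520 of 41128) were tested on log2(adjusted TPM + 1) in limma 3.58.1 (R 4.3.3), with 1 coefficient per group, a mean-variance trend and Benjamini-Hochberg adjustment over all tested genes. The fit was also run on simulated data with independent libraries, which does not cover libraries that deviate together. Every adjusted p in the text is from this fit unless an alternative is named. Alternatives were other scalings, a pseudocount of 0.1, no filter, no trend, each library left out and a replicate block. Coordinates are from GENCODE M21 (GRCm38), matched for 97.9% of genes. Named list genes are up to 3 per list with the largest difference among those that passed (1 such gene is not reported here), and Cstb, Sppl2a, Atp6v0a2 and the placental cathepsins were named after their values were seen. The members and lists were chosen with earlier results of these data known. Replicates share numbers within a cell type: same-numbered female and male T cell libraries deviated together (r = 0.721, 0.548 and 0.521 across genes), and B cell libraries did not (-0.169, -0.038 and -0.337).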

Additional observations from a re-analysis of the deposited data

Results flagged for a closer look

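Among the 10 genes in each cell type, 20 groups of 6 libraries were examined for a library standing apart by Dixon's criterion at 95%, which marks about 1 in 20 groups by chance, and 1 group was marked. Ctsh in female T cell 6 had an adjusted TPM of 0.305, with deposited bounds of 0.139 to 0.506, against at most 0.0221 in the other T cell libraries. The same library had the highest sum of B cell identity markers among T cells, 5.34 against 0.90 to 2.60. It also had the highest sums of monocyte and macrophage markers, 5.80 against at most 3.16, and of dendritic cell markers, 3.34 against at most 2.89. The source of its Ctsh value was not tested. Without female T cell 6 the B minus T difference of Ctsh was 7.50, against 7.44 with all libraries. That value is the upper end of the range of 7.41 to 7.50 found when each library was left out.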

How the results depend on the processing

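Each of the 10 genes kept its direction between B and T cells under every alternative run, and all but Ctsb kept their call, Ctsb falling to -0.02 with totals rescaled. A pseudocount of 0.1 moved Ctsh to 10.44 and Ctsw to -5.67. That rescaling moved the median difference of all tested genes from -0.09 to 0.25, and that between the sexes in T cells to 0.25 and of the interaction to -0.33. With it, list genes higher in T cells numbered 1 for other cathepsins, 2 for hydrolases, 1 for membrane proteins, 1 for V-ATPase subunits and 2 for sorting and regulators, and 4 membrane genes were higher in B cells. Median-ratio scaling gave 5 hydrolases higher in T cells and 4 membrane genes higher in B cells. Without the filter, 5 other cathepsins and 3 cystatins, stefins or serpins were higher in B cells, 4 other cathepsins were higher in T cells, and 1 of the 10 genes, Ctsw, passed for sex in T cells and 1, again Ctsw, in the interaction.

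Shares taken from the lower and upper deposited bounds moved by more than 1 SD for Ctsd in B cells (1.64% and 1.77%), Ctsw in B cells (0.00681% and 0.0271%), Ctsz in T cells (2.68% and 2.93%) and Ifi30 in T cells (2.70% and 3.06%). With a replicate block, 0 of the 10 genes passed for sex in B cells, 0 in T cells and 0 in the interaction, so it changed no call. B and T cell libraries share no replicate number, so a fixed block cannot be told apart from cell type and was not fitted there. The B minus T fit treats the libraries of a cell type as independent, although same-numbered T cell libraries deviated together. Its standard errors may therefore be too small. Unknown depth limits values far below 1, chiefly Ctsh in T cells and Ctsw in B cells, where the bounds differ by up to 304 and 7.90 times.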
